A study of Mus musculus with 12 samples.

Results

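The smooth muscle contractile genes are followed here through 12 RNA-seq libraries of cultured mouse mesangial cells (MMC). They are 10 genes taken by symbol from the count files (Acta2, Actg2, Tagln, Cnn1, Myh11, Myl9, Tpm1, Tpm2, Smtn and Lmod1), out of 25230 genes counted, and all 10 symbols were found in every library. MMC grown from the glomeruli of wild-type (WT) mice were compared with MMC from lncMGC-KO mice, in which Cas9 had been used with guides on either side of the transcription start site of lncMGC, the host transcript of a large microRNA cluster. Cells of each genotype were kept in serum-depleted medium (SD) or given TGF-β (10 ng/ml), and both conditions are labelled 24 h. This gave 4 groups of 3 libraries: WT-SD and KO-SD without TGF-β, WT-TGF and KO-TGF with it. The KO cells came from a single line, named KO5, and the number of mice behind each genotype is not given in the sources used here, so the genotype cannot be told apart from the culture it was measured in. lncMGC itself has no row in the counts, so the KO label was not checked on its target.

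Smooth muscle shortens when bundles of smooth muscle myosin pull on filaments of α and γ smooth muscle actin. Phosphorylation of the regulatory light chain by myosin light chain kinase starts the cycle, tropomyosins lie along the actin filament, and calponin and transgelin bind to it. Serum response factor (SRF) drives most of these genes through the CArG box, together with myocardin or the myocardin-related factors, and TGF-β is a well-known inducer of the program in fibroblasts and in mesangial cells. Mesangial cells are the contractile pericyte-like cells of the glomerulus, and in diseased glomeruli α smooth muscle actin is a common sign of their activation.

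The libraries held between 19898050 and 22827706 counts on genes. Levels are given as CPM, counts relative to the library size after TMM scaling, and levels of different genes are set side by side only as RPKM, which also divides by exon length. Of the 10 genes, 9 passed the filter used for testing (RPKM >1 in at least 1 library). The lowest value of these 9 in any library was 8.99 RPKM, so none passed through 1 group alone. Myh11 did not pass, and its values come from a wider fit that kept every gene with counts. Within each group the replicates varied beyond sampling noise. The paper calls them independent samples but does not state that they came from separate cultures. The p-values therefore measure the spread between libraries, which may be technical. That spread was small (biological coefficient of variation 0.0268) and small changes passed the test. The cells were sequenced in bulk, where fewer cells of a type and less RNA per cell cannot be told apart.

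Promoter sequence was at hand for 7 of the 10 genes, as RefSeq windows (GRCm38.p6) from 250 bases before to 50 bases after a transcript start. Those of Actg2, Tagln and Myh11 were not used here. The windows were searched on both strands for the CArG box (CC, 6 bases of A or T, GG), for the same box with at most 1 G or C inside, for GGAATG (the core bound by TEAD factors) and for CAGAC (bound by SMAD proteins). The plain CArG box was in 1 of the 7 windows and in 1.63% of all 32851 windows, and the relaxed box, which includes the plain one, was in 2 of 7 and in 9.98% of all. GGAATG was in 4 of 7 (Acta2, Tpm1, Smtn and Lmod1) and in 14.7% of all, while CAGAC was in 3 of 7 (Acta2, Cnn1 and Smtn) and in 49.6% of all. A match is a run of letters and not a measured binding site. The Acta2 window (chr19:34255324-34255623) held 2 relaxed boxes but overlaps an exon of Acta2 in GENCODE vM21 and is not printed. Annotated exon sequence began after base -218 in it and after base -194 in the Tpm1 window, counted from the start. The GGAATG of these genes, from base -146 in Acta2 and -56 in Tpm1, and the 2 relaxed boxes of Acta2 lie past those points. Upstream sequence is shown for Myl9, the one gene with a plain CArG box, and for Lmod1 and Smtn, both with GGAATG, which moved in opposite directions between the genotypes. Each starts 250 bases before the RefSeq start and stops at the first base in an annotated exon. In GENCODE vM21 Smtn reaches chr11:3540612, so its stretch lies outside the exons but inside that gene and is upstream of the RefSeq start only. Capitals mark the relaxed CArG box or GGAATG in either orientation.
Myl9 (chr2:156775214-156775419, plus strand): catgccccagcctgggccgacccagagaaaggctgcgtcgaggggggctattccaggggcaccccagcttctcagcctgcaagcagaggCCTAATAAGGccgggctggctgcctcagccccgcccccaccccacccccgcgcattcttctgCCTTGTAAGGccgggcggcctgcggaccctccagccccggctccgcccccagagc
Lmod1 (chr1:135324563-135324806, plus strand): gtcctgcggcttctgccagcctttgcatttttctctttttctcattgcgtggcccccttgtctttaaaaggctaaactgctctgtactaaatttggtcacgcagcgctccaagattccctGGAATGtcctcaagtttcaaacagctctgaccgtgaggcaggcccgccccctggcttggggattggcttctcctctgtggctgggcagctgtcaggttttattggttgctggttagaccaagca
Smtn (chr11:3539324-3539542, minus strand): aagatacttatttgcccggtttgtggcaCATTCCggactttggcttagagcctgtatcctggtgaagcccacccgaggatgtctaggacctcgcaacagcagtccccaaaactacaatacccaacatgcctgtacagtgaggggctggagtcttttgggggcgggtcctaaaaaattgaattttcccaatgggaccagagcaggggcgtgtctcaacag
In Myl9 the plain box CCTAATAAGG ran from base -161 to -152 and the relaxed box CCTTGTAAGG from -99 to -90, counted from the start. The GGAATG of Lmod1 began at -130 and its reverse complement in Smtn, CATTCC, at -222.

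TGF-β raised all 9 contractile genes tested in WT MMC and all 9 in KO MMC, in each case with no overlap between treated and untreated libraries. Calls are from the quasi-likelihood test of edgeR, with Benjamini-Hochberg adjustment over all 11525 genes tested, at FDR <5%. In WT 72.4% of those genes were called, 36.0% as higher with TGF-β and 36.4% as lower, and in KO 74.1%, 34.9% as higher and 39.1% as lower. For the 9 genes the log2 fold change had a median of 0.88 (WT) and 0.89 (KO), against -0.01 and -0.03 over all genes tested. The KO libraries were also higher than the WT libraries of the same condition for 8 of the 9, without overlap, and lower for Smtn alone. Among all genes tested, genotype called 56.1% in SD, 30.9% as higher in KO and 25.2% as lower, and 55.0% in TGF-β, 27.3% as higher and 27.8% as lower. The median difference of the 9 genes was 0.89 on the log2 scale in SD and 1.10 in TGF-β, against 0.02 and -0.00 over all genes tested. These comparisons share libraries and are given side by side. How many of all genes tested had no overlap of libraries was not counted. Together the 10 genes took from 0.440% to 0.462% of the counts of a WT-SD library, 0.820% to 0.844% in WT-TGF, 0.738% to 0.765% in KO-SD and 1.36% to 1.37% in KO-TGF.

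**Figure D1:**
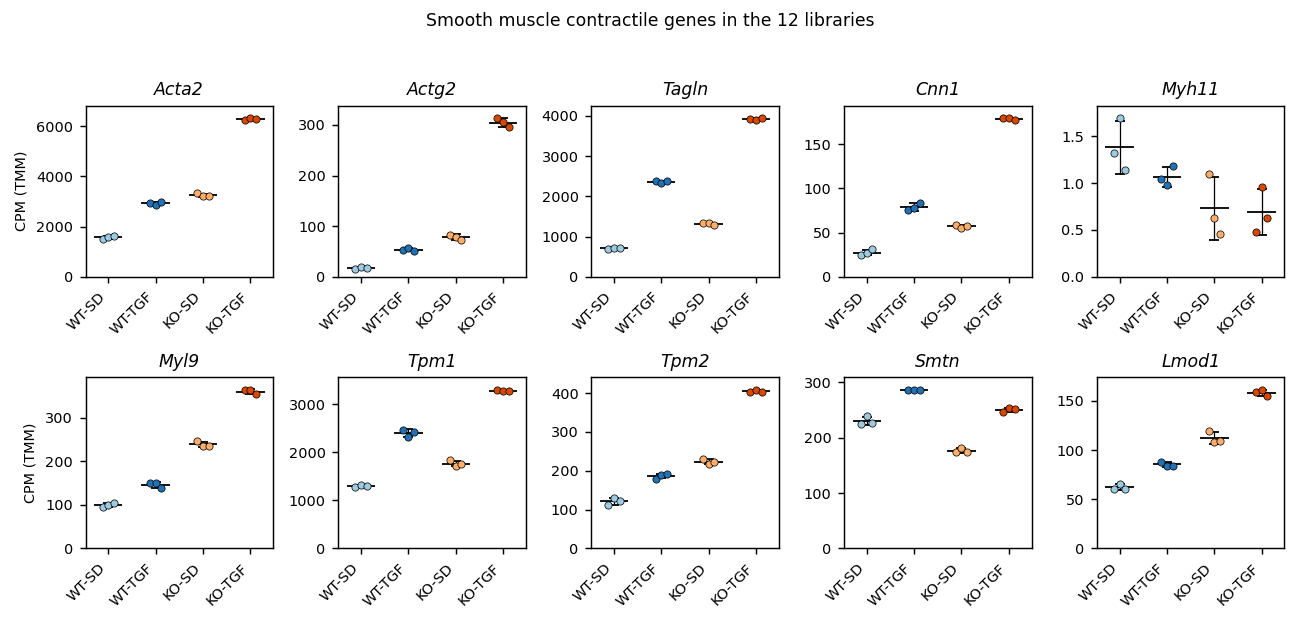
CPM (linear axes from 0) of each of the 10 contractile genes in each library of the 4 groups, with the group mean as a line and the SD as a bar (n = 3). KO-TGF is the highest group for 8 genes, WT-TGF is the highest for Smtn, and Myh11 stays under 2 CPM in all 12 libraries.

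Of the smooth muscle actins, Acta2 was the most abundant of the 10 genes and Actg2 the one that changed most. Acta2 (NCBI gene 11475, chr19:34240336-34255585 in GRCm38.p6, as for the genes that follow, minus strand) encodes α smooth muscle actin, the standard marker of contractile smooth muscle and myofibroblasts. It was at 1496, 1589 and 1617 CPM in the WT-SD libraries and at 2955, 2857 and 2978 CPM in WT-TGF. In KO-SD it was at 3321, 3228 and 3198 CPM, and in KO-TGF at 6250, 6309 and 6303 CPM. All 4 groups were separate, and untreated KO cells held more Acta2 mRNA than treated WT cells. On the log2 scale TGF-β raised it by 0.90 ± 0.02 (SE) in WT and by 0.95 ± 0.02 in KO, with adjusted p of 9.80e-25 and 1.74e-25 by edgeR's quasi-likelihood test. KO exceeded WT by 1.05 ± 0.02 in SD and by 1.10 ± 0.02 in TGF-β. The proportional responses did not differ past the threshold (KO minus WT 0.05 ± 0.03, adjusted p = 0.297 by the same test), while WT cells gained 1363 CPM and KO cells 3039 CPM. By mean RPKM Acta2 held place 8 among the 11525 genes tested in WT-SD, place 5 in WT-TGF and KO-SD, and place 1 in KO-TGF.

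Actg2 (NCBI gene 11468, chr6:83512909-83536251, minus strand) encodes γ smooth muscle actin, the actin of visceral smooth muscle. Its libraries were at 16.2, 18.4 and 16.3 CPM in WT-SD and at 52.4, 56.6 and 51.1 CPM in WT-TGF. They were at 82.9, 79.4 and 72.6 CPM in KO-SD and at 313, 305 and 296 CPM in KO-TGF. No other of the 10 genes spanned so wide a range: the mean of KO-TGF was 17.9 times that of WT-SD. The log2 response was 1.65 ± 0.06 in WT and 1.96 ± 0.04 in KO, and the difference of 0.31 ± 0.07 passed the test (adjusted p = 0.00170, edgeR). The difference between genotypes was 2.20 ± 0.06 in SD and 2.51 ± 0.04 in TGF-β, at places 53 and 28 from the top among the 11525 genes tested. Actg2 made up 1.51% ± 0.10 (SD, n = 3) of the RPKM of both smooth muscle actins in WT-SD, 2.51% ± 0.19 in WT-TGF, 3.29% ± 0.16 in KO-SD and 6.40% ± 0.19 in KO-TGF.

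Tagln and Cnn1 encode small actin-binding proteins that share a calponin homology domain. Tagln (transgelin or SM22α, NCBI gene 21345, chr9:45929628-45936058, minus strand) was at 698, 723 and 721 CPM in WT-SD and at 2386, 2332 and 2369 CPM in WT-TGF. In KO-SD it was at 1344, 1325 and 1288 CPM, and in KO-TGF at 3916, 3890 and 3939 CPM. It had the largest log2 response of the 10 genes in WT, 1.73 ± 0.02 against 1.57 ± 0.02 in KO, and was the only one whose response was smaller in KO past the threshold (-0.16 ± 0.03, adjusted p = 0.000128, edgeR). Its level was nevertheless higher in KO by 0.89 ± 0.02 in SD and by 0.73 ± 0.02 in TGF-β on the log2 scale. Untreated KO cells stayed below treated WT cells, with a ratio of means of 0.56.

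Cnn1 (calponin 1, NCBI gene 12797, chr9:22099221-22109221, plus strand), an inhibitor of actomyosin ATPase in smooth muscle, was far less abundant. It was at 24.6, 26.5 and 31.2 CPM in WT-SD and at 75.4, 78.1 and 83.3 CPM in WT-TGF. It was at 58.8, 54.8 and 57.4 CPM in KO-SD and at 179, 179 and 178 CPM in KO-TGF. Treated KO cells thus held 6.52 times the Cnn1 of untreated WT cells, the second widest range after Actg2. The log2 response was 1.53 ± 0.05 in WT and 1.65 ± 0.05 in KO, and their difference of 0.12 ± 0.07 did not pass (adjusted p = 0.238, edgeR). KO exceeded WT by 1.06 ± 0.06 in SD and by 1.18 ± 0.04 in TGF-β.

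The tropomyosins stabilise the actin filament and set which partners may bind. Tpm1 (NCBI gene 22003, chr9:67022590-67049672, minus strand) was at 1282, 1323 and 1299 CPM in WT-SD, and with TGF-β at 2463, 2318 and 2418 CPM. In KO it was at 1830, 1711 and 1753 CPM in SD, and with TGF-β at 3293, 3270 and 3266 CPM. Tpm2 (NCBI gene 22004, chr4:43513726-43523583, minus strand) was at 112, 129 and 123 CPM in WT-SD, and with TGF-β at 180, 188 and 192 CPM. In KO it was at 230, 217 and 222 CPM in SD, and with TGF-β at 403, 408 and 403 CPM. Every group was separate from the others for both genes, but KO-SD lay below WT-TGF for Tpm1 and above it for Tpm2. On the log2 scale Tpm1 responded by 0.88 ± 0.02 in WT and by 0.89 ± 0.02 in KO (difference 0.01 ± 0.03, adjusted p = 0.872, edgeR). The response of Tpm2 was 0.62 ± 0.04 in WT and 0.86 ± 0.03 in KO, and the difference of 0.24 ± 0.05 passed the test (adjusted p = 0.000327, edgeR). KO exceeded WT by 0.44 ± 0.02 in SD and 0.45 ± 0.02 in TGF-β for Tpm1, and by 0.88 ± 0.04 and 1.12 ± 0.03 for Tpm2. The counts do not separate the many spliced forms of Tpm1, some of which are not muscle forms.

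Lmod1 (leiomodin 1, NCBI gene 93689, chr1:135324813-135368065, plus strand), which starts new actin filaments in smooth muscle, followed the order of Tpm2 at a lower level. Its libraries were at 60.2, 65.7 and 60.8 CPM in WT-SD and 88.2, 84.3 and 84.1 CPM in WT-TGF. They were at 119, 108 and 109 CPM in KO-SD and 159, 161 and 155 CPM in KO-TGF. The genotype difference in SD, 0.85 ± 0.04 on the log2 scale, was larger than the TGF-β response of 0.46 ± 0.04 in WT and 0.50 ± 0.04 in KO. The responses differed by 0.04 ± 0.06 (adjusted p = 0.643, edgeR).

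Smtn was the one gene of the 9 tested that was lower in KO. It encodes smoothelin, an actin-associated protein of contractile smooth muscle (NCBI gene 29856, chr11:3517522-3539292, minus strand). It was at 225, 238 and 227 CPM in WT-SD, and with TGF-β at 286, 285 and 286 CPM. In KO it was at 175, 181 and 174 CPM in SD, and with TGF-β at 246, 253 and 251 CPM. TGF-β raised it in both genotypes, by 0.31 ± 0.03 in WT and by 0.50 ± 0.03 in KO on the log2 scale, the smallest response of the 9 in WT. The response was larger in KO by 0.19 ± 0.04 (adjusted p = 0.000318, edgeR), so that the deficit against WT went from -0.38 ± 0.03 in SD to -0.19 ± 0.03 in TGF-β (adjusted p = 3.31e-13 and 3.63e-07, edgeR). The mean in KO-TGF was 1.09 times that of WT-SD.

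The 2 myosin genes went separate ways. Myl9 (NCBI gene 98932, chr2:156775408-156781657, plus strand) encodes the regulatory light chain whose phosphorylation starts contraction. It was at 95.6, 99.9 and 104 CPM in WT-SD and at 150, 149 and 138 CPM in WT-TGF. It was at 246, 236 and 234 CPM in KO-SD and at 364, 363 and 355 CPM in KO-TGF. Genotype made a larger difference than TGF-β did: KO exceeded WT by 1.26 ± 0.03 in SD and by 1.31 ± 0.03 in TGF-β on the log2 scale, against responses of 0.55 ± 0.03 in WT and 0.59 ± 0.03 in KO. The responses differed by 0.04 ± 0.05 (adjusted p = 0.537, edgeR).

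Myh11 (NCBI gene 17880, chr16:14194527-14292188, minus strand), the smooth muscle myosin heavy chain and the most specific marker of differentiated smooth muscle, was close to the limit of detection. Its raw counts were 29, 39 and 25 in WT-SD, 22, 22 and 24 in WT-TGF, 24, 13 and 10 in KO-SD, and 9, 18 and 12 in KO-TGF. The treated and untreated libraries overlapped in both genotypes. In the wider fit, its log2 response to TGF-β was -0.35 ± 0.25 in WT and -0.07 ± 0.33 in KO (adjusted p = 0.248 and 0.942, edgeR). The difference KO-SD minus WT-SD was -0.89 ± 0.27 (adjusted p = 0.00282, edgeR), in a fit where 18.1% of 18326 genes were called lower. It no longer passed without WT-SD replicate 2 (adjusted p = 0.0640) or without KO-SD replicate 3 (adjusted p = 0.0666). In TGF-β the difference was -0.61 ± 0.30 (adjusted p = 0.0992), in a fit where 20.6% of genes were called lower, and of the 12 libraries left out in turn it passed only when KO-TGF replicate 2 was left out (-0.92, adjusted p = 0.0325, edgeR). Myh11 thus contributed between 0.012% and 0.058% of the RPKM of the 4 smooth muscle and non-muscle myosin heavy chains (Myh9, Myh10, Myh11 and Myh14) in any library.

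**Figure D2:**
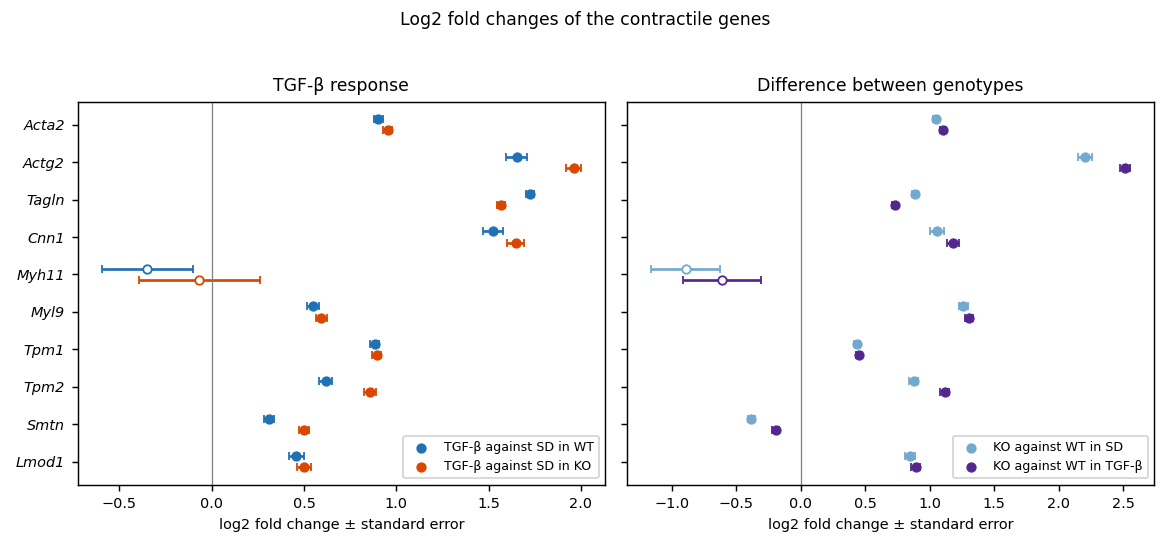
Log2 fold change with its standard error for each contractile gene, TGF-β against SD in each genotype on the left and KO against WT in each condition on the right. All filled points lie right of 0 except Smtn on the right; the open points are Myh11, from the wider fit.

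Beyond direction, the 9 genes fell into an order by how the level of untreated KO cells stood to that of treated WT cells. KO-SD was above WT-TGF for 5 genes, without overlap of libraries: Myl9 (ratio of means 1.64), Actg2 (1.47), Lmod1 (1.31), Tpm2 (1.20) and Acta2 (1.11). It was below WT-TGF, again without overlap, for 4: Tpm1 (0.74), Cnn1 (0.72), Smtn (0.62) and Tagln (0.56). This comparison changes genotype and treatment at once and was not tested. How many of all genes tested lay above or below in the same way was not counted either. The gain in CPM with TGF-β was larger in KO than in WT for all 9. At the same fold change a higher starting level gives a larger gain, and 8 of the 9 started higher in KO. On the log2 scale the response of KO was larger for 3 genes (Actg2, Tpm2 and Smtn), smaller for 1 (Tagln) and within the threshold for 5. Over all genes tested, 8.67% had a larger and 16.6% a smaller response in KO.

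Set side by side per exon length, the order in WT-SD was Acta2 (714 ± 29.0 RPKM, SD, n = 3), Tagln (359 ± 6.93), Tpm1 (201 ± 3.19), Myl9 (85.8 ± 3.46), Smtn (52.5 ± 1.65), Tpm2 (41.8 ± 2.91), Lmod1 (15.8 ± 0.77), Actg2 (10.9 ± 0.80), Cnn1 (10.0 ± 1.24) and Myh11 (0.182 ± 0.037). Only Actg2 and Cnn1 overlapped their neighbour there. The first 4 places were the same in all 4 groups. Actg2 moved from place 8 in WT-SD to 7 in WT-TGF, 6 in KO-SD and 5 in KO-TGF, with 196 ± 5.31 RPKM in the last, and Smtn moved from 5 in WT-SD and WT-TGF to 7 in KO-SD and 8 in KO-TGF. In WT-TGF the libraries of Smtn and Tpm2 overlapped, at 65.2 ± 0.09 and 64.1 ± 2.13 RPKM.

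Most of these genes have non-muscle relatives, and the share of the muscle form in its family was taken from RPKM in each library. Exon length is the union of all annotated exons of a gene, so the size of a share depends on the annotation. Tagln made up 73.5% ± 0.06 (SD, n = 3) of the transgelins in WT-SD, 79.3% ± 0.11 in WT-TGF, 83.3% ± 0.35 in KO-SD and 81.5% ± 0.05 in KO-TGF. The share in KO-TGF was below that in KO-SD. Tagln2, the more widely expressed form, rose by 1.27 ± 0.02 in WT and by 1.75 ± 0.02 in KO on the log2 scale, against 1.73 and 1.57 for Tagln. Cnn1 was the minor calponin, with 4.56% ± 0.46 in WT-SD, 7.43% ± 0.40 in WT-TGF, 6.51% ± 0.26 in KO-SD and between 10.9% and 11.1% in KO-TGF. Of the myosin light chains, Myl9 made up 46.5% ± 0.65 of the 3 regulatory light chains in WT-SD and 46.9% ± 1.59 in WT-TGF, and the libraries of these groups overlapped. In KO its share was 64.9% ± 0.59 in SD and 64.7% ± 0.49 in TGF-β. The libraries of the genotypes were apart by far more than those of the treatments. Myl12a and Myl12b overlap on the same strand, so the split between them is uncertain. Without division by exon length the mean CPM in WT-SD was 99.7 for Myl9, 225 for Myl12a and 103 for Myl12b. In KO-TGF it was 360, 529 and 38.5, so the share of Myl9 is smaller by CPM. For the tropomyosins the WT-SD means were 1301 CPM for Tpm1, 122 for Tpm2, 83.2 for Tpm3 and 506 for Tpm4. Tpm1 and Tpm2 thus have a larger share by CPM than by RPKM. Tpm1 and Tpm2 together stayed between 49.4% and 52.9% of the tropomyosins in all 12 libraries, while Tpm2 alone went from 8.59% ± 0.46 in WT-SD and 7.39% ± 0.35 in WT-TGF to 11.5% ± 0.12 in KO-SD and 11.3% ± 0.10 in KO-TGF.

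Among the actins, Acta2 and Actg2 made up 56.5% ± 1.01 of the family in WT-SD, 59.0% ± 0.30 in WT-TGF, 62.7% ± 0.20 in KO-SD and 67.1% ± 0.19 in KO-TGF. These actin shares are uncertain, since 36.2% of the 51-base stretches of Actg1, the cytoplasmic γ actin, occur elsewhere in the transcripts and reads with several alignments are not in the counts. Actg1 stood at a mean of 5.64 CPM in WT-SD, rising to 15.4 CPM in KO-TGF. Against Actb alone, the share of Acta2 was 56.2% ± 1.02, 58.5% ± 0.27, 62.0% ± 0.20 and 65.8% ± 0.15 in the same order of groups. By the same measure 8.49% of Actb, 23.1% of Tpm3, 11.5% of Tpm4 and 9.97% of Cnn3 occur elsewhere. The shares of Acta2 against Actb and those of the tropomyosins and calponins are therefore uncertain too. Of the contractile genes themselves, no more than 0.314% of the 51-base stretches occurred in the transcripts of another locus. Tagln and Smtn overlap genes on the opposite strand, which strand-specific counting keeps apart.

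**Figure D3:**
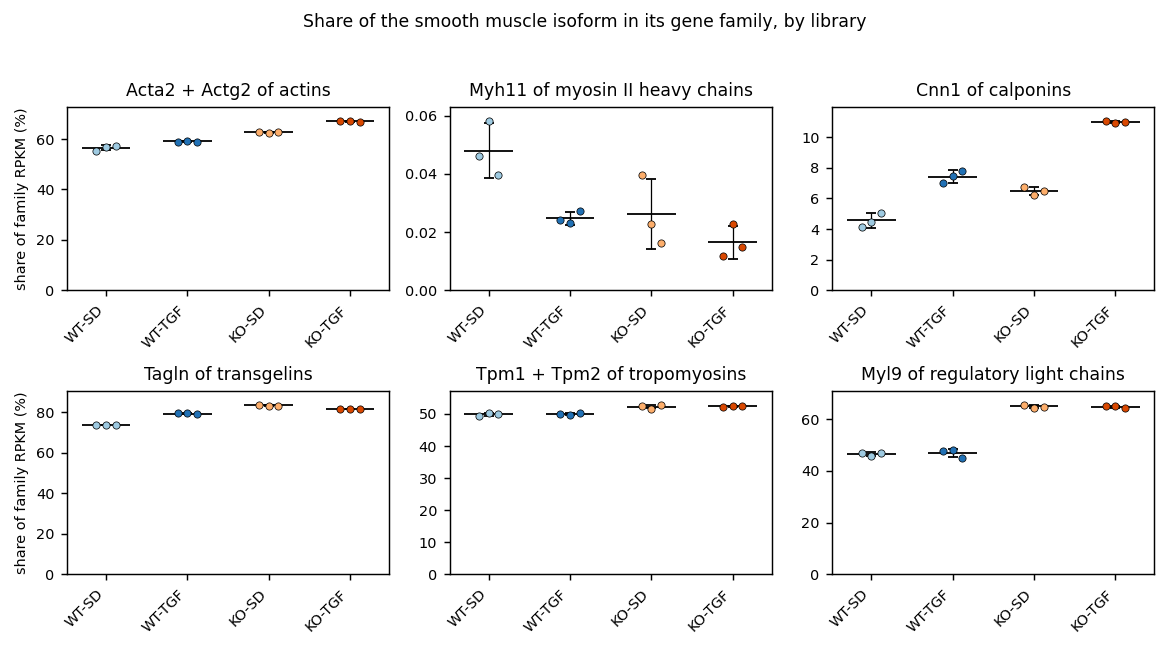
Share (%) of the smooth muscle form in the summed RPKM of its gene family, by library, with the group mean as a line and the SD as a bar (n = 3). The Myl9 shares of WT and KO do not overlap, the Cnn1 share is highest in KO-TGF, at 10.9% to 11.1%, and Myh11 stays below 0.06% of the smooth muscle and non-muscle myosin heavy chains.

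The relatives moved largely in the same direction. Of 14 tested out of 23 listed, TGF-β in WT raised 11 and lowered 3, and KO-TGF exceeded WT-TGF for 10 and fell short of it for 4. Acta1, the skeletal α actin, rose by 1.46 ± 0.24 with TGF-β in WT and by 0.58 ± 0.13 in KO on the log2 scale, from a mean of 0.698 ± 0.19 CPM in WT-SD to 6.36 ± 0.42 in KO-TGF. Actg1 rose by 0.86 ± 0.09 in KO, and Actb and Cnn2 were higher in KO-TGF than in WT-TGF by 0.65 ± 0.02 and 0.58 ± 0.02. The non-muscle heavy chains diverged: Myh9 rose by 0.82 ± 0.02 in WT and 0.87 ± 0.02 in KO, while Myh10 fell by 1.07 and 1.01. Of the light chains, Myl12b fell by 0.62 in WT and 1.21 in KO, and Myl12a rose by 0.85 ± 0.03 and 0.91 ± 0.03. The tropomodulin Tmod2, which caps the pointed end of actin, fell by 0.76 in WT and its difference KO-TGF minus WT-TGF was -0.33 ± 0.05, with -0.25 ± 0.04 for Tmod3.

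The partners of the contractile filaments moved in both directions. Of 20 tested out of 24 listed, TGF-β raised 13 and lowered 5 in WT, and raised 15 and lowered 5 in KO. Between genotypes, 13 were higher and 4 lower in KO-SD, and 16 higher and 3 lower in KO-TGF. Over all genes tested, TGF-β raised 36.0% and lowered 36.4% in WT, and raised 34.9% and lowered 39.1% in KO. By genotype, 30.9% were higher and 25.2% lower in KO-SD, and 27.3% higher and 27.8% lower in KO-TGF. The largest increases in WT were those of Csrp2, a LIM protein of vascular smooth muscle (2.08 ± 0.04 on the log2 scale), Kcnmb1, the β1 subunit of the calcium-activated potassium channel (1.79 ± 0.25), and Actn1, an α-actinin that crosslinks actin (1.09 ± 0.02). Kcnmb1 was also the most increased in KO-TGF over WT-TGF (1.91 ± 0.15), ahead of vinculin, Vcl (0.82 ± 0.02), and Csrp1 (0.73 ± 0.02). Its level was low throughout, from 0.639 ± 0.17 CPM in WT-SD to 8.36 ± 0.91 CPM in KO-TGF.

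One abundant partner that fell was Mylk, which encodes the myosin light chain kinase that phosphorylates Myl9. Its mean was 322 ± 6.61 CPM (SD, n = 3) in WT-SD, 171 ± 6.77 in WT-TGF, 144 ± 7.30 in KO-SD and 38.9 ± 1.88 in KO-TGF. It fell by 0.91 with TGF-β in WT and by 1.89 in KO on the log2 scale, and the responses differed by -0.98 ± 0.05 (adjusted p = 4.50e-15, edgeR). Mylk was thus lowest in the group where Myl9 was highest. Its difference KO minus WT was -1.16 ± 0.03 in SD and -2.14 ± 0.04 in TGF-β, and that of Synm in TGF-β was -1.65 ± 0.06. The gene encodes long and short kinases and telokin, which the counts do not separate. Ppp1r12b, a targeting subunit of myosin phosphatase, fell by 0.67 in WT and by 0.59 in KO, while its relative Ppp1r12a rose by 0.11 ± 0.03 and 0.15 ± 0.03. The intermediate filament genes fell as well: Synm, synemin, by 1.10 in WT and 1.85 in KO, and Des, desmin, by 0.45 and 1.07. Des was at 156 to 202 counts in WT-SD and at 3 to 7 counts in KO-TGF, and KO-TGF was below WT-TGF by -4.47 ± 0.25 on the log2 scale.

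Among the 12 regulators of contractile gene transcription tested of 13 listed, TGF-β raised 6 and lowered 5 in WT, and raised 6 and lowered 4 in KO. Over all genes tested it raised 36.0% and lowered 36.4% in WT, and raised 34.9% and lowered 39.1% in KO. Srf rose by 0.70 ± 0.04 in WT and by 0.60 ± 0.03 in KO on the log2 scale, and was higher in KO by 0.38 ± 0.04 in SD and by 0.27 ± 0.03 in TGF-β. Its cofactor Mrtfa rose by 0.48 ± 0.04 and 0.37 ± 0.04, and did not differ past the threshold between KO-TGF and WT-TGF (0.01 ± 0.04). Elk3, a ternary complex factor that competes with myocardin for SRF, rose by 0.91 ± 0.03 and 0.74 ± 0.03 and differed by -0.26 ± 0.03 between KO-TGF and WT-TGF. Klf4, a repressor of smooth muscle genes, fell by 0.38 in WT and by 0.67 in KO. Between genotypes Klf4 was higher in KO by 0.42 ± 0.03 in SD, and its means in TGF-β were 98.5 CPM in KO and 89.6 CPM in WT. Fhl1, a LIM-only protein of muscle, fell by 0.87 in WT and by 0.38 in KO, and Scai, an inhibitor of the myocardin-related factors, by 0.29 and 0.54. In KO 8 of the 12 were higher and 1 lower in SD, and 7 were higher and 2 lower in TGF-β, led by Fhl1 (1.13 ± 0.03), Gata6 (0.72 ± 0.06) and Fhl2 (0.41 ± 0.04), with Scai at -0.26 ± 0.07. The shares of all genes tested were 30.9% higher and 25.2% lower in SD, and 27.3% and 27.8% in TGF-β.

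Myocd, which encodes myocardin, the SRF cofactor most restricted to smooth and cardiac muscle, was under the filter and between 5 and 45 counts in every library. In the wider fit it rose with TGF-β in WT by 0.62 ± 0.23 (adjusted p = 0.0147, edgeR) and fell in KO by 0.89 (adjusted p = 0.0438, edgeR). The difference of these responses was -1.51 ± 0.45 (adjusted p = 0.00705, edgeR). The fall in KO rests on 14 to 15 counts in KO-SD and 5 to 8 in KO-TGF. Myocd was not refitted with libraries left out, so it is open whether its calls depend on a single library. In that fit 26.1% of genes were higher with TGF-β in WT, 28.7% lower in KO and 12.6% had a smaller response in KO. Its mean was 1.75 ± 0.22 CPM (SD, n = 3) in WT-TGF but 0.355 ± 0.084 in KO-TGF, the group with the highest level of 8 of the contractile genes.

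**Figure D4:**
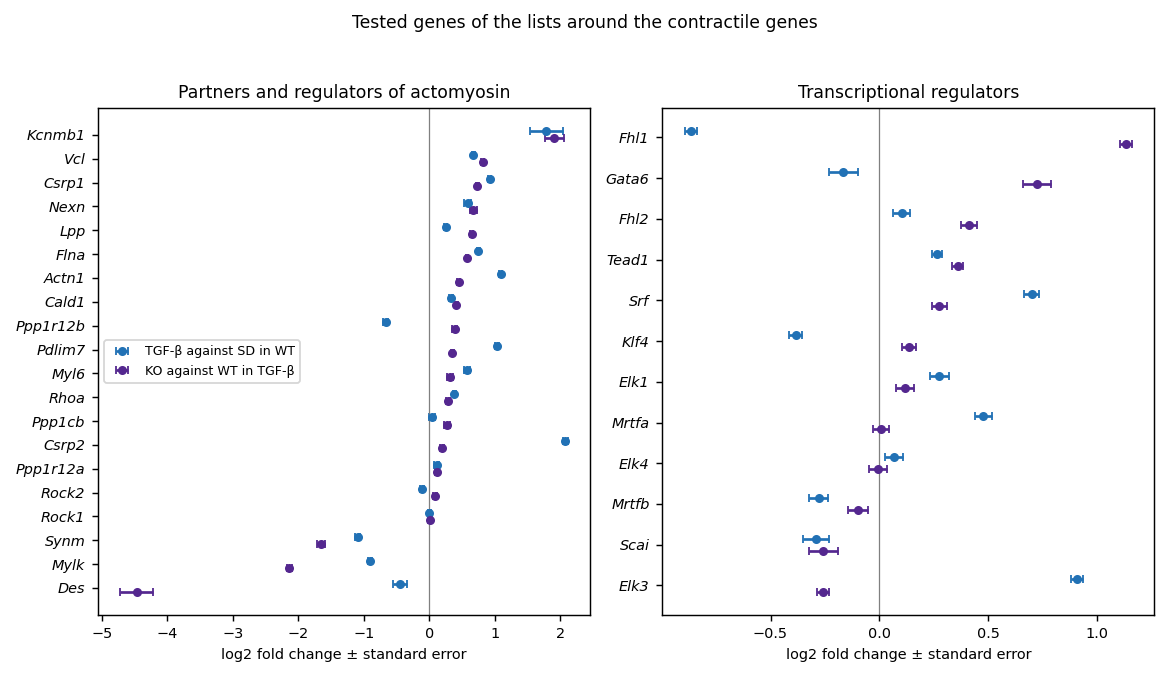
Log2 fold change with its standard error for the 20 partners and 12 transcriptional regulators tested, TGF-β against SD in WT and KO against WT in TGF-β, ordered by the latter. Des, Mylk and Synm lie left of 0 in both comparisons, and Srf lies right of 0 in both.

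Genes with the same profile were sought among all genes tested, by Pearson's r of log2 CPM over the 12 libraries. These libraries form 4 separate groups, so a high r mostly says that the group means lie in the same proportion, and many genes reached it: r was at least 0.95 for 1027 genes with Tpm1, 1001 with Tagln, 375 with Acta2 and 89 with Smtn. Outside the set, the genes most like Acta2 were Serpinh1, the collagen chaperone HSP47 (r = 0.998), Eprs and Msrb3. Those most like Tagln were Atf4, Hsp90b1 and Col5a2, those most like Cnn1 were Flna, Egln1 and Uggt1, and those most like Tpm1 were Ywhab, Tpm4 and Serp1. Ano6 and Hspa9 were among the nearest 3 for both Actg2 and Tpm2, with Adam19 and Cltc as the other one of each. Myl9 was nearest to Hoxb9, Arhgef2 and Gnao1, Lmod1 to Robo1, Gask1b and Apobr, and Smtn to Socs2, Cx3cl1 and C430002N11Rik. Among the 9 genes themselves, Tagln and Tpm1 lay closest (r = 0.998), then Actg2 and Tpm2 (r = 0.997), and Smtn was apart from all (r between -0.19 and 0.46).

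The label of mesangial cells was checked on 7 markers, which were mixed. Pdgfrb and Vim were at means of at least 288 and 1927 CPM in every group, while Thy1, a marker of rat mesangium, was at or near 0, and Itga8, Des and Gata3 were low, with group means of at most 3.05, 7.67 and 9.12 CPM. Serpine2 was at 277 ± 7.22 CPM (SD, n = 3) in WT-SD, 193 ± 8.03 in WT-TGF, 83.9 ± 6.48 in KO-SD and 44.4 ± 1.45 in KO-TGF, and its difference KO minus WT was -1.73 ± 0.04 in SD and -2.12 ± 0.04 in TGF-β on the log2 scale. Of the 5 tested, 3 were higher and 2 lower in KO in SD, and 2 were higher and 3 lower in TGF-β. The shares of all genes tested were 30.9% higher and 25.2% lower in SD, and 27.3% and 27.8% in TGF-β. Ren1 was at 0 in all libraries, and endothelial markers summed to at most 1.01 CPM. Striated muscle markers were at or below 3 counts for 4 of 6 (Ckm, Mb, Myog and Actn2), and all 6 summed to at most 3.38 CPM in WT-SD, 15.2 in WT-TGF, 2.89 in KO-SD and 9.91 in KO-TGF. The 7 macrophage markers summed to between 24.6 and 26.0 CPM in WT-SD and to at most 18.5 in WT-TGF, but to between 2.06 and 2.22 in KO-SD and 0.802 and 1.45 in KO-TGF, where Adgre1, C1qa and C1qb were at 0. Genes known from podocytes were more abundant and also lower in KO. Synpo was at means of 247 CPM in WT-SD, 313 in WT-TGF, 160 in KO-SD and 173 in KO-TGF. Wt1 was at 98.9, 68.2, 25.3 and 11.7 CPM in the same order, and Podxl was at 97.9 CPM in WT-SD, 32.8 in KO-SD and 25.9 in KO-TGF. On the log2 scale KO minus WT was -0.63 ± 0.03 in SD and -0.86 ± 0.03 in TGF-β for Synpo, -1.58 ± 0.04 and -1.52 ± 0.04 for Podxl, and -1.97 ± 0.05 and -2.55 ± 0.06 for Wt1, while Nphs1 had at most 1 count in any library. The 7 tubular markers, led by Lrp2 in WT, summed to between 44.8 and 47.3 CPM in WT-SD, 16.3 and 17.8 in WT-TGF, 14.1 and 14.9 in KO-SD and 8.72 and 10.2 in KO-TGF, with Slc34a1, Umod and Aqp2 at 0. Reads outside annotated exons went from 15.2% to 15.4% in WT-SD, through 12.2% to 12.5% in WT-TGF and 12.7% to 13.4% in KO-SD, to 10.3% to 10.9% in KO-TGF. The macrophage sum, Lrp2, Wt1, Serpine2 and the reads outside exons differed between the groups that separate the contractile genes. Synpo and Podxl were lower in KO, but Synpo was higher with TGF-β in WT, and Cubn did not follow Lrp2. The part of these genes and reads in the contractile differences was not tested.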

How the data were processed

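Polyadenylated RNA of primary MMC was sequenced as single-end reads of 51 bases. TopHat was used by the authors for alignment to mm10, and HTSeq-count for strand-specific counting per RefSeq gene. What they deposited are raw counts, which were not normalized. Reads with several alignments (11.2% to 11.7%) or on no gene (10.3% to 15.4%) were left out of library sizes.

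After TMM scaling, a quasi-likelihood model with a mean for each group was fitted to the 12 libraries together (edgeR 4.0.16, R 4.3.3), on the 11525 genes with RPKM >1 in at least 1 library, with Benjamini-Hochberg adjustment. A wider fit held 18326 genes. The interaction is the TGF-β response of KO minus that of WT. Exon lengths are the union of all exons of a gene in GENCODE vM21, and coordinates are from RefSeq (GRCm38.p6). Named genes are the contractile genes, the 3 largest called increases and decreases of each list in WT-TGF against WT-SD and in KO-TGF against WT-TGF, the genes in isoform shares and the 3 nearest profiles. Myocd, Ppp1r12a and the other genes under the limit were named after their values were seen. The contractile genes, lists and tests were chosen with earlier results of these data known. The fit was run on simulated counts in which few genes changed, evenly up and down and in a single group. Most genes were called with TGF-β in the data, so the simulation does not test the scaling in that setting. Alternatives were other scalings, DESeq2 1.42.0, other filters, a fit of only the 2 groups compared (not run for the interaction), a block for the replicate number, and each library left out. For Myh11 the left-out fits were added after its values were seen. Part of one list of cell type markers is not reported here.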

Additional observations from a re-analysis of the deposited data

Results flagged for a closer look

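The TGF-β response differed between the genotypes for 4 of the 9 contractile genes tested, by edgeR's test of the interaction at FDR <5%. On the log2 scale, KO minus WT, the difference was 0.31 for Actg2, 0.24 for Tpm2, 0.19 for Smtn and -0.16 for Tagln. Each kept its direction and its call under all 18 alternatives run for it. Over all genes tested, 25.3% had a called difference of this kind.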

How the results depend on the processing

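All 10 counts of contractile genes called higher or lower in the 5 comparisons stayed within 1.5 times under the alternatives, except the number below WT-SD in KO-SD. That number was 2 instead of 1 when genes needed CPM >1 in 3 libraries and when no filter was used, since Myh11 then enters the test. With each library left out in turn it stayed at 1. Of 41 called fold changes, 40 kept their call throughout. The other was that of Myh11 between KO-SD and WT-SD, lost without WT-SD replicate 2 and without KO-SD replicate 3 (-1.32 to -0.64 over the left-out libraries of the fit of all genes, added after seeing the data). The uncalled differences in response changed sign in some settings: Myl9 (-0.00158), Tpm1 (-0.036) and Lmod1 (-0.00355) with library size alone, and Tpm1 (-0.0054) with no filter. Without one library they ranged from -0.014 to 0.051 for Tpm1 and from -0.00026 to 0.095 for Lmod1. For Myh11 the response in KO ranged from -0.37 to 0.36 and the interaction from -0.024 to 0.71. Library size alone shifted the median of all genes by -0.16 with TGF-β in WT and by -0.23 in KO, and changed no count of contractile genes.

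Same-numbered libraries deviated together weakly at most (r from -0.027 to 0.078 over 18 pairs, none over 0.1). Of the 12 libraries, 10 correlated best with one of their own number, a hint from the data of a weak shared effect. With the replicate number as a block, 9 contractile genes were higher with TGF-β in each genotype, and 8 were higher and 1 lower in KO in each condition. The interaction called 3 larger and 1 smaller, so the block changed no call of a contractile gene. Over all genes tested it raised the share called for the interaction from 25.3% to 27.5%.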

Other observations

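Several genes of the lists that were under the filter gave called changes in the wider fit of every gene with counts (edgeR, FDR <5%). In that fit TGF-β called 52.1% of all genes in WT and 52.8% in KO, and genotype called 41.7% in SD and 39.5% in TGF-β. Ppp1r14a, which encodes the inhibitor of myosin phosphatase CPI-17, fell by 2.84 with TGF-β in WT and by 2.89 in KO on the log2 scale, from 7 to 20 counts in WT-SD to 1 to 2 in WT-TGF. Smtnl2, a smoothelin-like gene, fell by 1.73 and 2.36, from 23 to 28 counts in WT-SD to 7 to 8 in WT-TGF. Synpo2, synaptopodin 2, an actin-bundling protein of muscle, was higher in KO by 0.40 ± 0.10 in SD and by 0.79 ± 0.10 in TGF-β, with 102 to 209 counts in all libraries. Pln, phospholamban, had no count in any library, which allows up to 3 counts in each. These genes were named after their values were seen.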
